A study of Mus musculus with 7 samples.

Results

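Ghrh, Ghrhr and Ghr, genes of the growth hormone axis, were followed in differentiating 3T3-L1 cells. This established line of mouse fibroblasts turns into fat-storing adipocytes when given a hormone mixture. They are 3 of 18820 genes that the array annotation names singly, each with 1 row in the table. Ghrh was picked because it showed the largest fall with the inhibitor. Ghrhr and Ghr were added because they encode receptors of the same axis.

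All 7 arrays came from cells induced for 2 days with human insulin, dexamethasone and isobutylmethylxanthine and kept in insulin afterwards, and RNA was taken on day 7. In 4 samples the medium held DMSO, the solvent. In 3 it held 1 µM of an inhibitor of stearoyl-CoA desaturase (SCD), the enzyme that makes monounsaturated from saturated fatty acids, for the whole period. The labels do not name the compound or say whether replicates were separate cultures, so a p-value here reflects the spread among these samples alone, and that spread may be technical. Levels are log2 values made with RMA, which corrects background and brings arrays to a common distribution, and they ran from 2.23 to 13.2.

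GHRH, the growth hormone-releasing hormone, is a peptide of the glucagon and secretin family, best known as a product of hypothalamic neurons that makes the pituitary release growth hormone. It acts through GHRHR, a receptor coupled to a stimulatory G protein and cAMP. Growth hormone then binds GHR, a cytokine receptor that works as a dimer with the kinase JAK2 and the transcription factors STAT5A and STAT5B, and that is well known on fat cells, where growth hormone promotes the breakdown of stored fat.

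The start regions of Ghrh are shown because its transcript changed most and because the RefSeq promoter table (GRCm38.p6) gives it more than 1 start. The 2 starts lie 9229 bases apart, and both windows are on the minus strand. Each window holds 250 bases before and 50 after a start, written 5′ to 3′. Capitals mark TGACG, the core of the cAMP response element, in either orientation (CGTCA), and TATAAA, the TATA box. The distal window is chr2:157346606-157346905 and the proximal one is chr2:157337377-157337676.
Ghrh distal start: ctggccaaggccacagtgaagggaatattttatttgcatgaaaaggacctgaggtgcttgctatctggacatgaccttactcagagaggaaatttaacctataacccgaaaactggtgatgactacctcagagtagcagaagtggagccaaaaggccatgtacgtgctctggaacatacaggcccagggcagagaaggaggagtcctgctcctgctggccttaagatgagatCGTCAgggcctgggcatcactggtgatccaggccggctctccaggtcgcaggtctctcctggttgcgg
Ghrh proximal start: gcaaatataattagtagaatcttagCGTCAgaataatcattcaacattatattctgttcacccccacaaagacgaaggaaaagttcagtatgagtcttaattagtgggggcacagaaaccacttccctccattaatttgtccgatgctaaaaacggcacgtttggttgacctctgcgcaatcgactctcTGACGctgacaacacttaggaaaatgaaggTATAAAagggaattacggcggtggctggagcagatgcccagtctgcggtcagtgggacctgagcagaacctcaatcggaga

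The distal window holds 1 such core, reversed, at -18 to -14 from its start. The proximal window holds a forward core at -61 to -57, a reversed one at -225 to -221 and TATAAA at -31 to -26. Of all 32851 windows of this length, 20.8% hold TGACG on either strand and 13.6% hold TATAAA, so neither match is rare. Neither Ghrh window held the full element TGACGTCA (1.79% of all windows), the C/EBP-ATF core TGATGNAA (3.97%), the STAT5 element TTCNNNGAA (8.3%), the sterol regulatory element TCACNCCAC (1.24%), the E-box CACGTG (7.15%) or the PPAR response element (0.0396%). TGACG is contained in TGACGTCA, so these counts overlap. Ghr also has 2 windows in the table, with TATAAA reversed at -188 to -183 in one of them and no other match. A match describes letters only, and the array row for Ghrh does not tell which start was used.

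In Ghrh, the hormone gene, the transcript was at 8.77, 8.86, 8.82 and 8.54 in DMSO replicates 1 to 4. With the inhibitor it was at 5.32, 5.44 and 5.71 in replicates 1 to 3. All inhibitor arrays lay far below all DMSO arrays, with 2.83 log2 units between the lowest DMSO and the highest inhibitor value. Group means were 8.75 ± 0.14 (SD, n = 4) and 5.49 ± 0.20 (SD, n = 3), a log2 difference of -3.25 (SE 0.11). On the linear scale the inhibitor level was 10.5% of the DMSO level, or 9.54-fold lower. These values chose the gene, so no test is given for them. Ghrh also varied within its groups: its pooled SD of 0.17 was larger than that of 98.3% of genes, where the median was 0.055. DMSO 4 was the lowest of the controls and SCD inhibitor 3 the highest of the treated arrays. RMA can compress changes near the low end of the scale. The inhibitor mean of Ghrh was close to the median of 5.59 over all genes, and whether the fall is understated was not tested.

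The next largest falls, just outside the choice, were those of Klb, the co-receptor of FGF21, at -2.95 (SE 0.13), Slc22a20, a member of the organic anion transporter family, at -2.64, Chchd10, a mitochondrial protein, at -2.38 and Tmem45b, a membrane protein, at -2.28. The largest rise among all genes was 1.88.

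**Figure D1:**
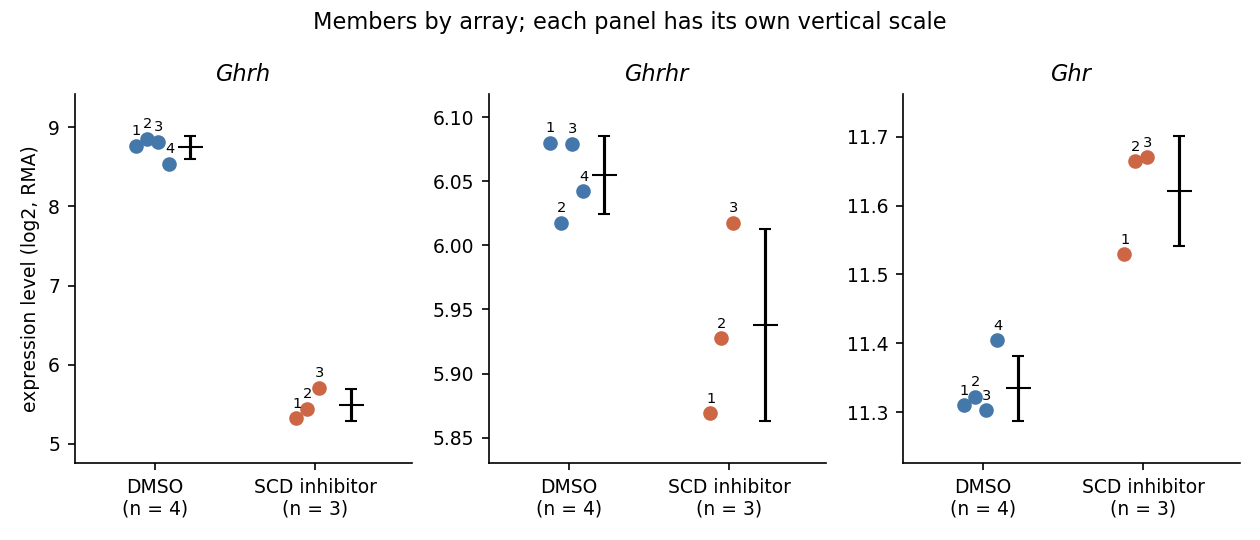
Expression level (log2, RMA) of Ghrh, Ghrhr and Ghr on each array, with replicate numbers; bars are the mean and SD of 4 DMSO and 3 SCD inhibitor arrays. Ghrh drops from about 8.75 to 5.49, Ghrhr values of the groups meet at 6.02, and all Ghr values with the inhibitor lie above all DMSO values.

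Ghrhr, which encodes the receptor for GHRH, was at 6.08, 6.02, 6.08 and 6.04 in DMSO and at 5.87, 5.93 and 6.02 with the inhibitor. SCD inhibitor 1 and 2 lay below every control, while SCD inhibitor 3 equalled the lowest control. The means were 6.05 ± 0.030 (SD, n = 4) and 5.94 ± 0.075 (SD, n = 3). The log2 difference of -0.12 (SE 0.038) did not pass in limma, with adjusted p = 0.134 over all genes and a 95% interval of -0.21 to -0.03. An exact permutation test over the 7 arrays gave a two-sided p = 0.0571. The call hung on 1 array: without SCD inhibitor 3 the difference was -0.16 with adjusted p = 0.0478 in limma. The interval does not reach the -3.25 of Ghrh. However, the DMSO mean of Ghrhr, 6.05, was not far above the median of 5.59 over all genes. Ghrh itself ended at 5.49 with the inhibitor. Whether Ghrhr was expressed above background was not tested. A transcript near background has little room to fall, so the interval is not read as a contrast with Ghrh.

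Ghr, which encodes the growth hormone receptor and, in a shorter form, a soluble binding protein, was at 11.31, 11.32, 11.30 and 11.40 in DMSO. With the inhibitor it was at 11.53, 11.66 and 11.67. The lowest treated array lay 0.13 above the highest control, DMSO 4. Ghr rose from 11.34 ± 0.047 (SD, n = 4) to 11.62 ± 0.080 (SD, n = 3), which is 1.22-fold (log2 0.29, SE 0.044, 95% interval 0.18 to 0.39, adjusted p = 0.0104 in limma). The two-sided exact permutation test gave p = 0.0286, the smallest that 4 against 3 arrays allow. Ghr kept its call in all 17 alternatives run, with adjusted p between 0.000496 and 0.0483 in limma. In the same fit 8.00% of all genes passed at 0.05, with 3.62% called higher and 4.37% called lower (54.7% of the passing genes lower, 44.3% with arrays centred on their median), so 1 of the 2 receptors tested is not read as a result about the axis. The groups of Ghrh and Ghr did not overlap, which held for 17.3% of all genes, 9.02% with the inhibitor below and 8.30% with it above.

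**Figure D2:**
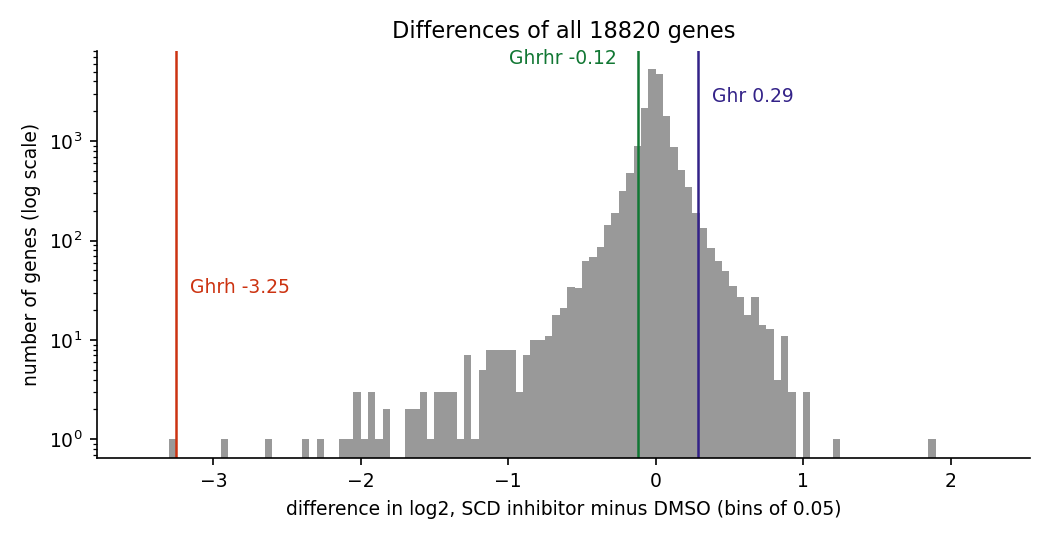
Number of genes (log scale) by difference in log2, SCD inhibitor minus DMSO, for all 18820 genes, with lines at Ghrh (-3.25), Ghrhr (-0.12) and Ghr (0.29). Ghrh stands at the left end, by which it was chosen. The receptors lie nearer the centre, at ranks 2118 (Ghrhr) and 18282 (Ghr) counted from the largest fall.

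Markers of cell identity moved beside these changes. Of 5 preadipocyte markers 3 rose, against 3.62% of all genes. They were the growth factor receptors Pdgfra (log2 0.89, SE 0.093) and Pdgfrb (0.51, SE 0.068) and the inhibitor of fat cell formation Dlk1 (0.32, SE 0.070). The summed log2 level of the 5 was 40.1 to 40.8 in DMSO and 42.2 to 42.7 with the inhibitor. None of 8 adipocyte markers passed in limma, with 2 higher at an unadjusted p under 0.05, and their summed level was 88.0 to 88.3 in DMSO and 87.7 to 88.4 with the inhibitor. The labels call the cells pre-adipocytes, yet Adipoq, which encodes adiponectin, was at 12.39 in DMSO, close to the top of the scale. Lep, the leptin gene, was at 4.83. In these bulk samples, fewer cells of a type and less RNA per cell cannot be told apart. The part of preadipocyte genes in the rise of Ghr was not tested.

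For the cells in which Ghrh is best known, 1 of 6 hypothalamic neuron markers fell, against 4.37% of all genes. It was the membrane fusion gene Snap25, from 8.44 to 7.93 (adjusted p = 0.00659 in limma). The summed level of the 6 neuron markers was 30.2 to 30.5 in DMSO and 29.4 to 29.9 with the inhibitor. The neuropeptide genes Npy and Pomc were at 4.92 and 4.27 in DMSO, toward the low end, and did not pass. At an unadjusted p under 0.05, 2 of the 6 were lower, Snap25 (difference -0.51) and Npy (-0.17). Syt1 was higher at the same threshold (0.10). Whether the markers moved as a group was not tested. The part of these markers in the fall of Ghrh was not tested. Of 4 measured transcription factors of GHRH neurons none passed in limma, or at an unadjusted p under 0.05. Their mean levels were 3.82 to 5.20, below the median of 5.59 over all genes. For them too an unchanged transcript and an absent one may not be told apart. Gsx1, which is needed for GHRH neurons to form, read 4.37 in controls and 4.39 in treated cells, Hmx2 had a difference of 0.05 and Hmx3 one of -0.05. Hmx2 read 5.17 in DMSO 1, 3 and 4 and 5.21 in DMSO 2, and its difference turned to -0.02 without SCD inhibitor 2. None of 5 pituitary, 4 macrophage, 4 endothelial or 4 skeletal muscle markers passed in limma, nor did any at an unadjusted p under 0.05.

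Around the members, the other genes of the axis were counted from lists chosen by function. Of 86 measured genes on these lists, 5 rose and 6 fell, a share of 12.8% against the 8.00% of all genes. Among hormones of the axis other than Ghrh, none of 5 passed in limma or at an unadjusted p under 0.05. Gh, the growth hormone gene itself, had a difference of -0.07 and Sst, which encodes the release-inhibiting hormone somatostatin, one of 0.05. Beside Ghrhr and Ghr, none of 6 other axis receptors passed, by limma or at an unadjusted p under 0.05. These were the ghrelin receptor Ghsr (0.06) and the somatostatin receptors Sstr1 to Sstr5, with differences of -0.13 to 0.01. None of these other hormone and receptor genes had groups that did not overlap. Their mean levels were low, 3.22 (Prl) to 5.41 (Cort) for the hormones and 3.69 (Sstr1) to 5.14 (Ghsr) for the receptors. The median over all genes was 5.59, so an unchanged transcript and an absent one may not be told apart here. The median difference was -0.04 for the 5 other hormones and -0.02 for the 6 other receptors, against -0.0037 for all genes.

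Below GHR, 2 of 16 signalling genes rose and 2 fell, with a median difference of 0.02. Of all genes 3.62% were called higher and 4.37% lower. Stat5b, one of the transcription factors that GHR activates, fell by 0.15 (from 8.54 ± 0.031 to 8.39 ± 0.022, SE 0.024, adjusted p = 0.0134 in limma), but did not pass once SCD inhibitor 3 was left out (adjusted p = 0.0533). Its close relative Stat5a had a difference of 0.12 that did not pass. Jak2, the kinase bound to GHR, read 8.35 in controls and 7.99 in treated cells, a difference of -0.37 (SE 0.093, adjusted p = 0.0676 in limma) short of the threshold. It did pass in 5 of 17 alternatives, among them without SCD inhibitor 2 (adjusted p = 0.0262).

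The feedback inhibitors of the SOCS family went in different directions. Socs2, the member most closely tied to growth hormone, was at 6.96, 7.14, 7.12 and 7.16 in DMSO and at 6.67, 6.82 and 6.86 with the inhibitor. The groups do not overlap, and Socs2 fell by 0.31 (SE 0.064, adjusted p = 0.0323 in limma). That call ended without any 1 of DMSO 2, DMSO 3, DMSO 4, SCD inhibitor 1, 2 or 3 (adjusted p = 0.0637 to 0.101), and the differences were -0.26 to -0.36 over all fits without 1 array. A dimmer row of Socs2 had a difference of -0.17. Socs3 rose by 0.27 (SE 0.048, adjusted p = 0.0171 in limma), but a dimmer row of the same gene had a difference of -0.04, and the mean of both did not pass (adjusted p = 0.207). Without DMSO 2 or SCD inhibitor 3 its adjusted p was 0.0584 and 0.0521. Cish, another target of STAT5, was at 4.06 and 4.14 and did not pass. Irs1, an adaptor shared with insulin signalling, rose by 0.24 (adjusted p = 0.0391 in limma). Its adjusted p lay between 0.0169 and 0.13 without 1 array, and only the fit without SCD inhibitor 3 kept the call.

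Of 11 genes known to respond to growth hormone 3 fell and none rose, with a median difference of -0.02. Of all genes 4.37% were called lower and 3.62% higher. The list was not split into genes that growth hormone raises and genes that it lowers, so the count gives no direction of response. Igf1, the growth factor through which growth hormone acts on many tissues, had a mean of 6.53 ± 0.051 (SD, n = 4) in controls and of 6.31 ± 0.028 (SD, n = 3) in treated cells. It fell by 0.22 (SE 0.032, adjusted p = 0.00899 in limma) and kept its call without any 1 array. Bcl6, a transcriptional repressor under STAT5 control, fell by 0.26 (SE 0.049, adjusted p = 0.026 in limma), with adjusted p between 0.0259 and 0.0849 without 1 array. Its call ended without DMSO 1, DMSO 2, DMSO 4, SCD inhibitor 2 or SCD inhibitor 3. Socs2 is the third. Only 1 of the 11 passed when any 1 of DMSO 2, DMSO 4, SCD inhibitor 2 and SCD inhibitor 3 was left out. At an unadjusted p under 0.05, 2 genes of this list were higher, Igfals and Fos, with differences of 0.24 and 0.20. Of the other cytokine receptors that work as a pair of identical chains, none of the 3 measured passed in limma. Epor, the erythropoietin receptor, was higher at an unadjusted p under 0.05 (difference 0.25, adjusted p = 0.13 in limma).

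The hormone and receptor family of GHRH held 1 large change beside Ghrh itself. Sctr, which encodes the secretin receptor, a close relative of GHRHR, fell from 7.41 ± 0.12 (SD, n = 4) to 5.51 ± 0.12 (SD, n = 3), a log2 difference of -1.90 (SE 0.079, adjusted p = 5.98e-05 in limma). It kept its call in all 17 alternatives. Adcyap1r1, the receptor of the related peptide PACAP, rose by 0.37 (SE 0.060, adjusted p = 0.0137 in limma). The call of Adcyap1r1 ended without DMSO 4 (adjusted p = 0.0508), SCD inhibitor 2 (0.0622) or SCD inhibitor 3 (0.0661). The other 12 of the 14 relatives of GHRHR did not pass. Thus 1 of the 14 rose and 1 fell, against 3.62% and 4.37% of all genes. None of the 5 peptide genes related to Ghrh passed in limma or had an unadjusted p under 0.05. Mean levels ran from 3.19 (Pth2r) to 8.31 (Calcrl) among the relatives and from 3.35 (Vip) to 4.38 (Sct) among the peptides. The median over all genes was 5.59, above all 5 peptides and most relatives. At such levels an unchanged transcript and an absent one may not be told apart. Sct, whose product is the ligand of the secretin receptor, read 4.42 in controls and 4.33 in treated cells.

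**Figure D3:**
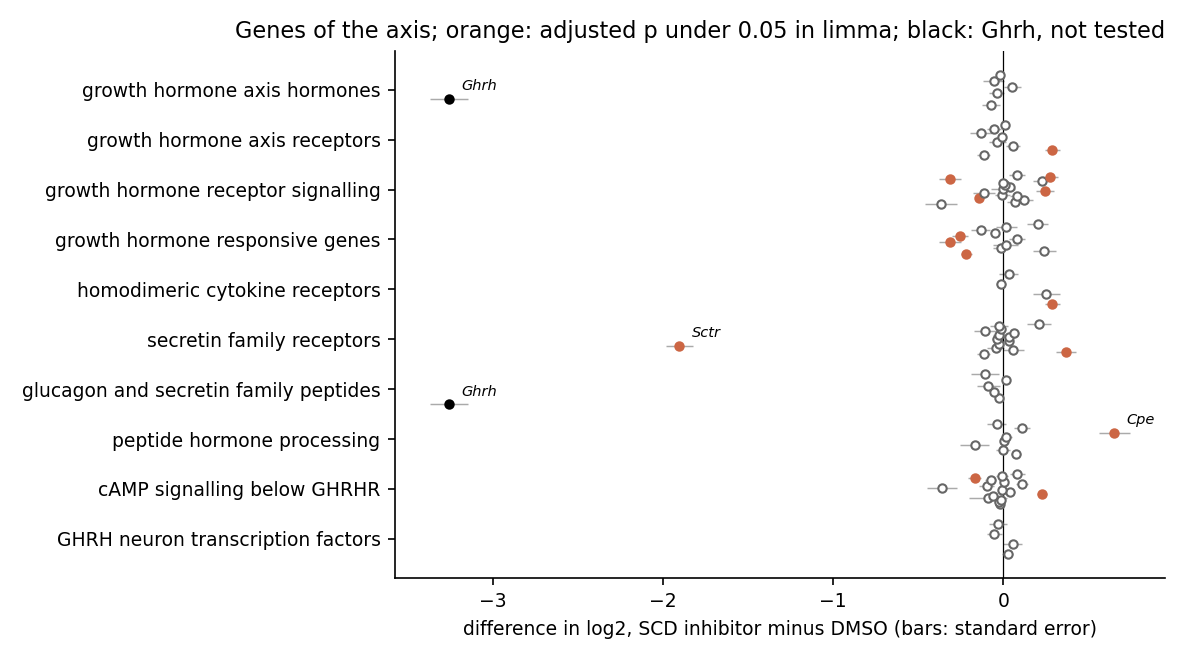
Difference in log2, SCD inhibitor minus DMSO, with its standard error, for the measured genes of 10 lists; orange points passed an adjusted p of 0.05 in limma, open points did not, and Ghrh (black) was not tested. Beside Ghrh at -3.25 only Sctr (-1.90) and Cpe (0.65) lie beyond 0.5 in either direction.

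Of 8 enzymes that cut and trim peptide hormones 1 rose, against 3.62% of all genes. Cpe, a carboxypeptidase that removes basic residues from hormone precursors, was at 8.13 ± 0.11 (SD, n = 4) and 8.78 ± 0.17 (SD, n = 3), a rise of 0.65 (SE 0.092, adjusted p = 0.00779 in limma). Pcsk1, a convertase of neuroendocrine cells, was at 3.66 in both groups. Furin, a convertase found in most cells, had a difference of 0.07, and Dpp4, a protease that inactivates GHRH, one of -0.04; neither passed.

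Between GHRHR and the nucleus, 1 of 16 genes of cAMP signalling rose and 1 fell, against 3.62% and 4.37% of all genes. Adcy6, an adenylyl cyclase, rose by 0.23 (SE 0.030, adjusted p = 0.00633 in limma) and kept its call in all 17 alternatives. Prkar2b, a regulatory subunit of protein kinase A, fell by 0.17 (SE 0.038, adjusted p = 0.0458 in limma). That call was kept without DMSO 3 (adjusted p = 0.0181 in limma). It ended without any 1 other array (adjusted p = 0.0846 to 0.148 in limma). Gnas, the stimulatory G protein that GHRHR uses, had a difference of -0.02, and Creb1, the factor that binds cAMP response elements, one of -0.01. Neither passed.

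The genes beside each member on the RefSeq map were read to see whether neighbours moved too. None of the 6 measured protein-coding neighbours of Ghrh passed in limma, with 1 higher and 3 lower at an unadjusted p under 0.05. The share of all genes at that unadjusted threshold was not counted, so these counts are a description. Rpn2, a subunit of the oligosaccharyl transferase and the nearest on one side, had a difference of 0.03. Manbal, the nearest on the other, had one of -0.01, and Samhd1, Rbl1, Src and Blcap had differences of -0.16, -0.27, -0.08 and 0.12. Samhd1 passed in 3 of 17 alternatives. The fall of Ghrh was thus not seen at that size in the genes around it. Of the neighbours of Ghrhr, Adcyap1r1 is the receptor gene described above and rose, while Inmt, Mindy4, Aqp1, Neurod6 and Itprid1 did not pass, at differences of 0.00, 0.02, 0.15, -0.03 and -0.05.

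Of 5 measured neighbours of Ghr 1 rose, against 3.62% of all genes. Selenop, which encodes the selenium carrier selenoprotein P, rose by 0.28 (SE 0.043, adjusted p = 0.0112 in limma), close to the 0.29 of Ghr. It kept its call without any 1 array and lost it without both arrays numbered 1 (adjusted p = 0.0584). Oxct1, an enzyme of ketone body use, had a difference of 0.14 (adjusted p = 0.0517 in limma) and passed in 7 of 17 alternatives. Ccdc152, Fbxo4 and AW549877 had differences of 0.08, 0.14 and 0.02 and did not pass.

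**Figure D4:**
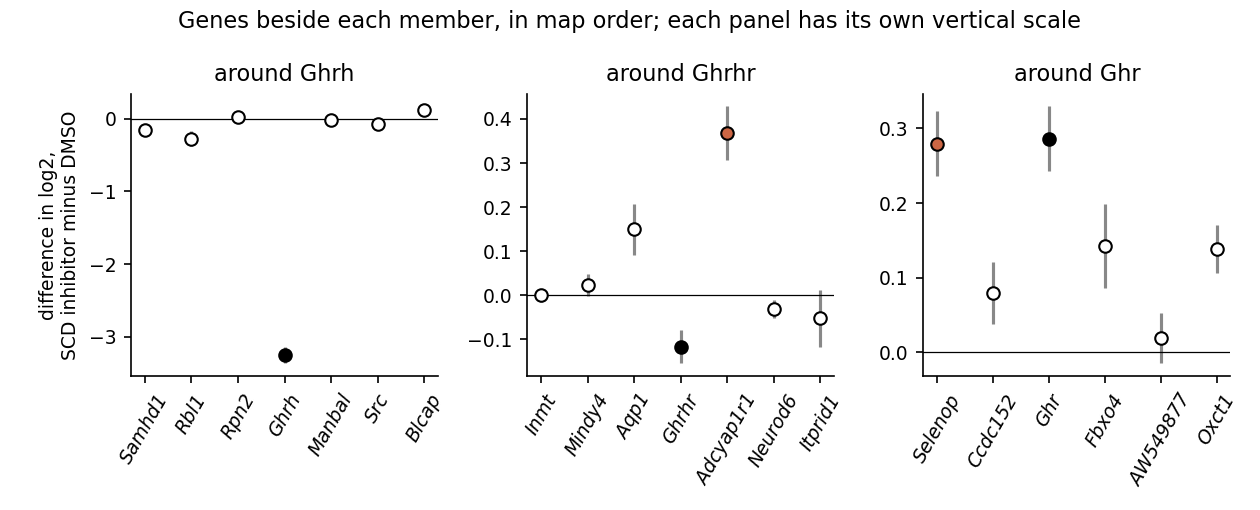
Difference in log2, SCD inhibitor minus DMSO, with its standard error, for the members (black) and the nearest measured protein-coding genes on each side in map order; orange points passed an adjusted p of 0.05 in limma. No neighbour of Ghrh comes near -3.25, while Selenop (0.28) is close in value to Ghr (0.29). Ccdc152, which lies nearer to Ghr on that side, had a difference of 0.08 at a low mean level of 2.89.

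Genes whose values ran most like those of a member were found from each gene's deviations from its own DMSO mean on the 7 arrays, by the root mean square of the difference (smaller is more alike). For Ghrh these were Klb (0.31), Slc22a20 (0.47), Chchd10 (0.59), Tmem45b (0.64) and Slc25a34 (0.78), the genes with the next largest falls. Klb was at 8.25, 8.54, 8.35 and 8.54 in DMSO and at 5.32, 5.77 and 5.33 with the inhibitor. The within-group order of Klb was not that of Ghrh, since SCD inhibitor 2 was the highest treated array for Klb and SCD inhibitor 3 for Ghrh. For Ghr the nearest were D8Ertd738e (0.028), Slc33a1 (0.033), an acetyl-CoA transporter of the endoplasmic reticulum, Layn (0.035), a hyaluronan receptor, Postn (0.036), the matrix protein periostin, and Minpp1 (0.039), an inositol phosphatase. Each of these genes nearest to Ghr had its highest control in DMSO 4 and its lowest treated value in SCD inhibitor 1, as Ghr had. This likeness was chosen from the values over 7 arrays in 2 groups and is a description.

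**Figure D5:**
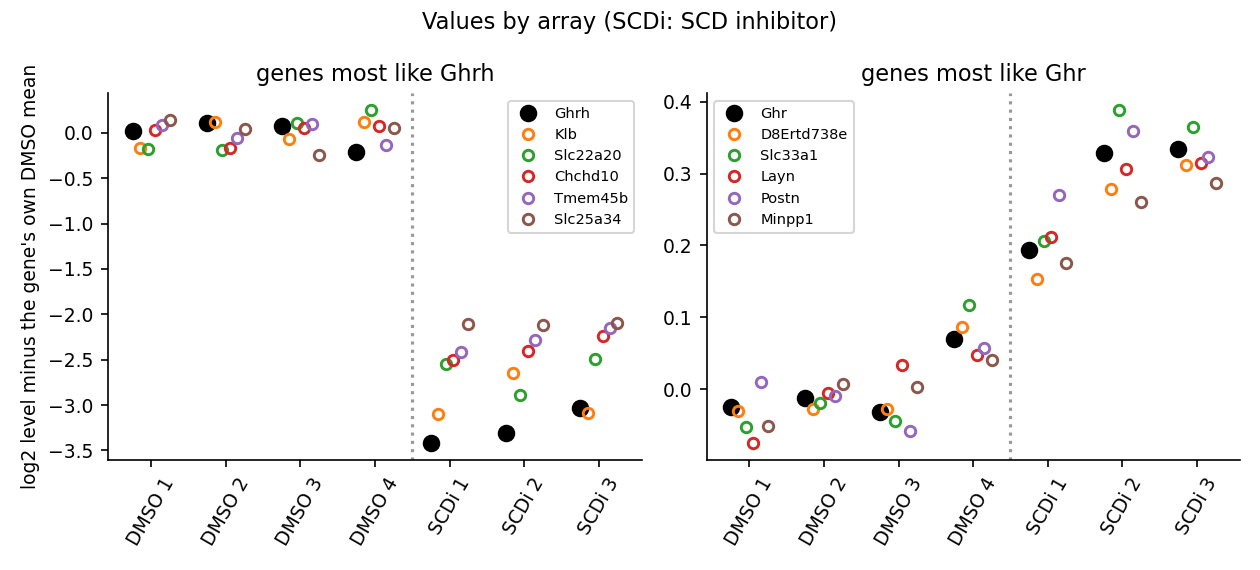
Log2 level minus the gene's own DMSO mean on each array for Ghrh (left) and Ghr (right), filled black, and the 5 genes most like each, open circles. Around Ghrh all 6 genes lie below their DMSO values on every treated array, and around Ghr the treated values of all 6 genes lie between 0.15 and 0.39.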

How the data were processed

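Biotin-labelled target from total RNA of 7 samples was measured on Affymetrix arrays, 1 per sample, per the labels' protocols. The authors deposited log2 expression levels, for which the submitters' processing notes name RMA; its version and any filter or build were not given in the sources used here. Of 28996 rows, 21218 carry 1 gene symbol, 1881 several and 5897 none; the last 2 kinds were left out. The brightest row stood for each of 18820 genes. No dim gene was dropped, and the number of arrays limits the precision. Both groups entered 1 model in limma 3.58.1 (lmFit, eBayes; R 4.3.3), with Benjamini-Hochberg adjustment over all genes and a threshold of 0.05, and the script was tested on simulated data. Ghrh was given no test. Counts at an unadjusted p under 0.05 are descriptions, since the share of all genes under it was not counted.

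The members and lists were chosen with earlier results of these data known. Named were the members, from each list up to 4 passing genes with the largest change or else the 2 with the smallest p, the 3 nearest neighbours per side, the next 4 falls and the 5 most alike genes. Other genes printed, such as list members that did not pass, cell type markers and Jak2, were chosen after their values were seen, as was the TATAAA search. Alternatives were a replicate block, normalization, filters, row choice, moderation, array weights and left-out arrays. No protein sequences and no start window of Ghrhr were used here.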

Additional observations from a re-analysis of the deposited data

Results flagged for a closer look

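Among the 46 genes whose 4 DMSO values were checked, 4 had 1 DMSO array far from the other 3. Chance alone marks about 1 in 20 such groups where values are not tied. None of the 4 is Ghrh, Ghrhr or Ghr. Hmx2 read 5.21 in DMSO 2 and 5.17 in each of the others, which are tied, so any departure would have been marked. Itprid1, a neighbour of Ghrhr, read 3.90 in DMSO 3 and 3.64 to 3.67 in the others. Chchd10, one of the genes most like Ghrh, read 7.20 in DMSO 2 and 7.39 to 7.43 in the others. D8Ertd738e, the gene most like Ghr, read 9.21 in DMSO 4 and 9.09 in the others. Ghr too was highest there, a likeness by which D8Ertd738e was chosen.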

How the results depend on the processing

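Over 17 alternatives the difference of Ghrh ran from -3.36 to -3.16 and that of Ghr from 0.26 to 0.33, with no change of direction and no lost call for Ghr. Ghrhr, between -0.16 and -0.07, crossed the threshold only without SCD inhibitor 3; its difference was -0.16 to -0.082 over the fits without 1 array.

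The number of genes that passed was 1505, against 2326 with arrays centred on their median, 808 without both arrays numbered 1 and 949 to 1294 without 1 array. Centring put 44.3% of them lower, against 54.7%. With the replicate number as a block 896 passed, the growth hormone responsive list held 1 passing gene, peptide hormone processing 0 and cAMP signalling 1, and Selenop, Stat5b, Bcl6, Igf1, Cpe and Prkar2b lost their calls. Same-numbered samples deviated together only weakly (correlations of 0.17, 0.14 and 0.08). The labels do not say whether they were paired, and these correlations cannot settle whether they shared a culture or batch. The cAMP list held 4 passing genes after a further quantile normalization, and 1 with all rows tested, with array weights or without both arrays numbered 1. The homodimeric receptor list held 2 when arrays were centred, and receptor signalling 1 without both arrays numbered 1.

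Without 1 array, passing genes numbered 1 to 3 in receptor signalling, 1 to 2 among responsive genes, axis receptors and secretin family receptors, 1 to 2 in cAMP signalling and 0 to 1 among related peptides other than Ghrh, where Adcyap1 passed limma without SCD inhibitor 3 (adjusted p = 0.0497). Directions turned for genes that never passed. Igf1r had a difference of -0.015 without both arrays numbered 1 and of -0.051 to 0.074 without 1 array. Manbal had 0.0041 when arrays were centred. Without 1 array Itprid1 ran from -0.078 to 0.0088, Hmx2 from -0.020 to 0.10 and AW549877 from -0.00049 to 0.042. The cause was not tested.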

Other observations

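A second row of Gnas, the stimulatory G protein used by GHRHR, read 9.44, 9.07, 9.78 and 9.42 in DMSO and 9.58, 9.19 and 7.66 with the inhibitor. Its difference of -0.62 (SE 0.45, adjusted p = 0.521 in limma over all rows) rests on SCD inhibitor 3 alone. The brighter row of Gnas stayed between 9.47 and 9.54 on all arrays.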
